A study of Rattus norvegicus with 10 samples.

Results

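The tendon matrix genes are a group of 9 genes for the collagen-binding and regulatory proteins of tendon, chosen by symbol: Kera, Chad, Tnmd, Fmod, Scx, Dcn, Lum, Comp and Thbs4. The group was chosen with earlier results of these data known. Rows for 7 of the 9 were found among the 17221 transcripts (16497 symbols) of the expression table, 1 row each, and all 7 were among the 10259 transcripts that passed the filter on low values. Comp and Thbs4 were not analysed here. The libraries came from female Wistar rats in which arthritis had been raised with bovine type II collagen. Every group, the untreated one included, therefore carried the disease. The labels name the tissue as muscle, and the study's methods describe subcutaneous tissue that included muscle under the skin. RA_0 rats were taken before any therapy. AP_1h and AP_34d rats were taken 1 h and 34 days into acupuncture, given by needle punction and twirling at points of the lower back and the leg. PLA_1h and PLA_34d rats were taken at the same times under a placebo of saline, which the study's methods describe as an injection into the peritoneum, so that needling and the route of the control differed together. The methods say that tissue surrounding the needled points was excised. The study's results name the sampled tissue as dorsal and subcutaneous, while the library labels give no site. Which site was taken in rats that were not needled is not stated. A difference of site, if there was one, therefore cannot be told apart from treatment in any comparison of AP with another group. Each group was 2 libraries, labelled as replicates and taken here to be 2 animals, and no group was free of arthritis.

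Tendon is built of parallel type I collagen fibrils laid down by tenocytes. Scx encodes scleraxis, the basic helix-loop-helix transcription factor that marks tendon progenitors, and Tnmd encodes tenomodulin, a membrane protein of differentiated tenocytes. Dcn, Lum, Fmod and Kera encode decorin, lumican, fibromodulin and keratocan, small leucine-rich proteoglycans that bind collagen and govern how fibrils grow and pack. Chad encodes chondroadherin, a leucine-rich matrix protein of cartilage and tendon that binds collagen and integrins. Decorin and lumican are made by fibroblasts of most connective tissues, whereas tenomodulin and scleraxis are more closely tied to tendon and ligament.

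The libraries held 5371687 to 8899521 counted reads, and values are given as deposited, in CPM (read counts per 1000000 reads), in which 1 CPM stood for 4.19 to 10.1 reads. A count of 0 would allow up to 0.297 to 0.716 CPM (3 reads, counting error only). Skeletal muscle markers summed to between 79169 and 246789 CPM in every library, while keratinocyte markers summed to at most 6.11 CPM. PLA_34d replicate 1 stood apart from the other libraries, with the lowest share of ribosomal Rn45s reads (0.237%) and the largest summed level of leukocyte markers (810 CPM). In bulk tissue, fewer cells of a type and less RNA per cell cannot be told apart.

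In the AP_1h libraries Kera, Chad and Tnmd were near the limit of detection and Fmod was low, whereas each of the 8 other libraries held more of all 4. Scx, Dcn and Lum were not lower with them. The sequences upstream of these 4 genes are shown first, because they moved together and because scleraxis and other helix-loop-helix factors bind the E-box (CANNTG, the same on both strands). Each is the 250 bases before the start of the gene in RefSeq, build GRCr8, plus strand, 5′ to 3′, with E-boxes in capitals: Kera at chr7:34283850-34284099, Chad at chr10:80008795-80009044, Tnmd at chrX:101350182-101350431 and Fmod at chr13:48045317-48045566.
Kera: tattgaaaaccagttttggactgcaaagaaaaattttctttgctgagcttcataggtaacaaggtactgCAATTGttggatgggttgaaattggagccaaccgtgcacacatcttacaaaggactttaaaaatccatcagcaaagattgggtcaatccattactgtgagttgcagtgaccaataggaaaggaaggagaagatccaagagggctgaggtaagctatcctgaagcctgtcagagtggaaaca
Chad: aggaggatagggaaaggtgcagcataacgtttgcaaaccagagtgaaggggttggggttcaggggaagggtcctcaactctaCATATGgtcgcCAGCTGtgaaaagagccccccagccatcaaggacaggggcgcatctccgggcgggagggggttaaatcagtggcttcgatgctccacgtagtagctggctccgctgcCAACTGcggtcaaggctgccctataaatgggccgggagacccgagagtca
Tnmd: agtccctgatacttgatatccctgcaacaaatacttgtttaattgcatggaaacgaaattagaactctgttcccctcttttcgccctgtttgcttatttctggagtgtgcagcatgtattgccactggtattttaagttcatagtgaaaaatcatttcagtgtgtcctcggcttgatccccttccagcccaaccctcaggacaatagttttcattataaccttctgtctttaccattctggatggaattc
Fmod: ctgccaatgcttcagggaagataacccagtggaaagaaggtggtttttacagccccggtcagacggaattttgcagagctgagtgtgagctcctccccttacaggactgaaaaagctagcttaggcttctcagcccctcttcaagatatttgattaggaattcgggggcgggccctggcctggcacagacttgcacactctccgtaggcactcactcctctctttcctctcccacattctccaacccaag
The letters CANNTG occurred 3 times before Chad, 1 time before Kera and 0 times before Tnmd and Fmod. Among 33469 promoters of the same length, 65.5% held at least 1 E-box, 30.8% at least 2 and 11.5% at least 3. TATAAA on either strand was found before Chad and not before the other 3, and 12.9% of all promoters held it. Lum had 1 E-box in its 250 bases. A match or its absence in this window describes letters only.

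Kera (NM_001108087, rn4 chr7:35121875-35129326, plus strand) encodes keratocan, a keratan sulphate proteoglycan of cornea and tendon. Its level was 10.97 and 50.6 CPM in RA_0 replicates 1 and 2. It was 0.649 and 0.280 CPM in AP_1h, 13.5 and 23.9 in PLA_1h, 25.2 and 18.8 in AP_34d, and 30.1 and 6.82 in PLA_34d. Both AP_1h libraries lay below all 8 others, on 8 reads in all. The depth-scaled ratio of RA_0 to AP_1h reads was 72.6 (95% exact interval 36.5 to 169, counting error only).

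Chad (NM_019164, chr10:83201982-83205753, plus strand) stood at 7.16 and 34.2 CPM in RA_0 and at 0.541 and 0.420 CPM in AP_1h, again on 8 reads. PLA_1h held 5.65 and 12.5 CPM, AP_34d 27.5 and 4.63, and PLA_34d 13.8 and 2.84. No library of another group came near the AP_1h pair, the closest being PLA_34d replicate 2. Chad lies inside Acsf2 on the opposite strand, and since the strand used in counting is not stated, its reads are uncertain. Acsf2 itself stood at 23.1 and 32.4 CPM in RA_0 and at 12.97 and 6.72 CPM in AP_1h. It held 31.0 and 25.8 CPM in PLA_1h, 40.6 and 28.1 in AP_34d, and 36.3 and 34.3 in PLA_34d. Acsf2 was thus also lowest in both AP_1h libraries, and its part in the Chad level was not tested. Scx also overlaps another gene, and the 5 other members overlap no other symbol. The RA_0 to AP_1h ratio of Chad was 48.8 (24.4 to 114).

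Tnmd (NM_022290, chrX:121396741-121412197, plus strand) was measured at 5.96 and 15.7 CPM in RA_0 and at 0.216 and 0.420 CPM in AP_1h, on 5 reads. In PLA_1h it reached 1.59 and 6.67 CPM, in AP_34d 4.88 and 4.18, and in PLA_34d 9.87 and 0.995. PLA_34d replicate 2 (7 reads) and PLA_1h replicate 1 (16 reads) were the lowest libraries outside AP_1h. The gap between AP_1h and PLA_34d replicate 2 thus rests on few reads. Its RA_0 to AP_1h ratio was 39.3 (16.4 to 123).

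Fmod (NM_080698, chr13:46987714-46998331, plus strand) is the most deeply counted of the 4, with 135 reads over the AP_1h pair, and so has the narrowest interval. RA_0 held 37.7 and 199 CPM, AP_1h 10.8 and 4.90, PLA_1h 53.1 and 107, AP_34d 149 and 60.6, and PLA_34d 124 and 27.1. The AP_1h libraries were again the lowest, with the nearest other library, PLA_34d replicate 2, at 27.1 CPM. The RA_0 to AP_1h ratio was 16.6 (13.9 to 19.97).

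**Figure D1:**
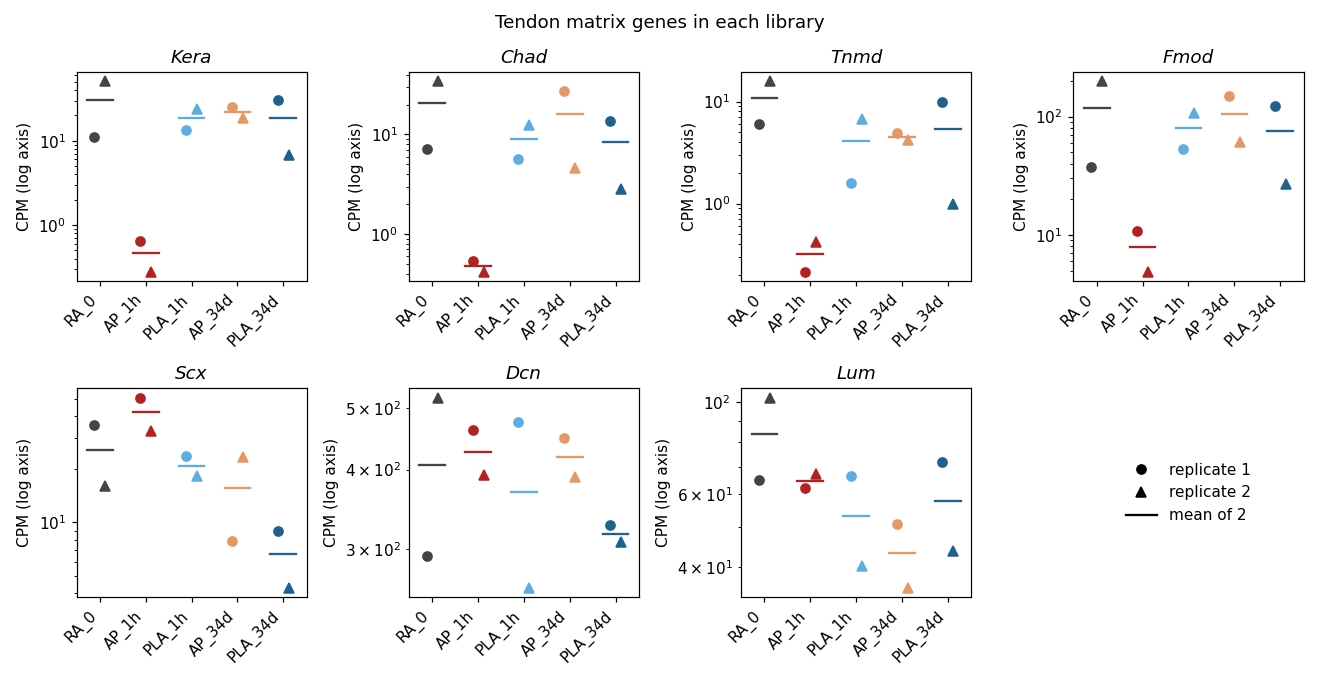
Level of each of the 7 genes in CPM (log axis, own scale for each gene) in the 5 groups, with a circle for replicate 1, a triangle for replicate 2 and a line at the mean of 2. Kera, Chad, Tnmd and Fmod are lowest in both AP_1h libraries (for Kera 0.649 and 0.280 CPM), whereas Scx has its highest mean there (42.0 CPM) and Dcn and Lum overlap RA_0.

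The other members were not low 1 h into acupuncture. Scx (NM_001130508, chr7:114504701-114506719, plus strand) stood at 35.5 and 16.04 CPM in RA_0 and at 50.9 and 33.0 CPM in AP_1h, the highest group mean of the 5. PLA_1h held 23.7 and 18.3 CPM, AP_34d 7.81 and 23.5, and PLA_34d 8.97 and 4.26, the lowest mean. Scx lies inside Bop1 on the opposite strand, so its reads are uncertain too. Bop1 stood at 39.1 and 28.8 CPM in RA_0, 39.9 and 25.3 in AP_1h, 29.1 and 44.6 in PLA_1h, 44.7 and 36.1 in AP_34d, and 33.5 and 37.7 in PLA_34d. Both AP_1h libraries were above both PLA_1h libraries for Scx, and the RA_0 pair overlapped the AP_1h pair.

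Dcn (NM_024129, chr7:35004234-35045189, plus strand) had 293 and 519 CPM in RA_0, 462 and 392 in AP_1h, 476 and 261 in PLA_1h, 448 and 389 in AP_34d, and 327 and 307 in PLA_34d. Its group means spanned 317 to 427 CPM and the spread within RA_0 and PLA_1h was wider than that span. Lum (NM_031050, chr7:35083480-35090284, plus strand) had 64.9 and 103 CPM in RA_0, 62.2 and 67.3 in AP_1h, 66.4 and 40.2 in PLA_1h, 51.0 and 35.7 in AP_34d, and 71.9 and 43.8 in PLA_34d. Lum was highest in RA_0 and lowest in AP_34d, and these were the only groups beside the AP_1h and AP_34d pair whose libraries did not overlap.

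Dcn, Lum and Kera are neighbours on chromosome 7, in that order and on the same strand, with 38290 bases between Dcn and Lum and 31590 between Lum and Kera. Epyc, a further leucine-rich proteoglycan, lies 31607 bases beyond Kera and averaged 0.0702 CPM. Of these neighbours Kera had AP_1h levels below all other libraries, and Dcn and Lum overlapped RA_0.

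AP_1h was set against RA_0 to ask how the needled tissue differed after 1 h. Values were tested as log2(CPM + 1) in limma over all 10 libraries, and an adjusted p under 0.05 counted as a call. limma called 0 of the 7 members here, where it called 0.0292% of all transcripts. At an unadjusted p under 0.05, 4 of 7 were lower, against 5.27% of all transcripts, and for the same 4 both AP_1h libraries lay below both RA_0 libraries, against 21.0% of all. Because the members were chosen with earlier results of these data known, such shares are no independent test, here or in the comparisons below. Kera had a log2 difference of -4.10 ± 0.73 (SE, limma adjusted p 0.0988), the smallest adjusted p of any member. The values were -3.52 ± 0.90 for Chad (limma adjusted p 0.242), -3.40 ± 0.86 for Fmod (0.241) and -3.04 ± 0.77 for Tnmd (0.241). Scx (0.75 ± 0.55), Dcn (0.13 ± 0.40) and Lum (-0.33 ± 0.38) differed by less than 1.5 standard errors. The median over the members was -3.04, beside 0.00 over all transcripts tested.

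Whether the 4 were called depended on the test. DESeq2 on the recovered reads called Kera (adjusted p 6.64e-08), Chad (6.46e-05), Fmod (0.000239) and Tnmd (0.000954) lower, where it called 1.10% of all transcripts lower. limma on the RA_0 and AP_1h libraries alone also called these 4, with adjusted p from 0.0039 for Kera to 0.017 for Fmod, against 0.593% of all transcripts. limma-voom and edgeR called 0 members in this and every other comparison.

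AP_1h was also set against the placebo at the same time. This comparison uses the AP_1h libraries again and is not independent of the last. AP_1h lay below PLA_1h in both libraries for Kera, Chad, Tnmd and Fmod (16.7% of all transcripts were lower in this way) and above it for Scx (13.9% higher). limma called 0 members and 0% of all transcripts, with 4 members lower at an unadjusted p under 0.05 against 2.74% of all. Kera differed by -3.71 ± 0.73 (limma adjusted p 0.445), Fmod by -3.19 ± 0.86 (0.717), Chad by -2.68 ± 0.90 (0.869) and Tnmd by -1.76 ± 0.77 (1.00). DESeq2 called Kera (adjusted p 1.39e-05), Fmod (0.0102) and Chad (0.0154), with 0.302% of all transcripts called lower, and limma on the compared libraries alone called the same 3, with 0.111% of all. The reads gave a PLA_1h to AP_1h ratio of 35.3 (17.7 to 82.6) for Kera, 16.6 (8.18 to 39.3) for Chad, 11.2 (4.52 to 35.9) for Tnmd and 8.80 (7.36 to 10.6) for Fmod.

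PLA_1h against RA_0 had 0 members called (0% of all transcripts) and 0 at an unadjusted p under 0.05, where 2.59% of all transcripts had one. All 7 differences were negative, from -1.28 for Tnmd to -0.15 for Dcn, and the libraries overlapped for each member.

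At 34 days of acupuncture the 4 genes stood within the range of RA_0 or close to it. Against AP_1h, both AP_34d libraries were higher for Kera, Chad, Tnmd and Fmod (17.1% of all transcripts were) and lower for Scx and Lum, so that 6 of 7 members were apart in 1 direction or the other, against 33.1% of all. limma called 0 members and 0% of all transcripts. At an unadjusted p under 0.05, 4 members were higher, against 3.29% of all. The log2 differences were 3.97 ± 0.73 for Kera (limma adjusted p 0.536), 3.53 ± 0.86 for Fmod (0.613), 3.10 ± 0.90 for Chad (0.651), 2.07 ± 0.77 for Tnmd (0.871) and -1.52 ± 0.55 for Scx (0.828). DESeq2 called Kera (adjusted p 2.19e-06), Chad (0.00108) and Fmod (0.00217) higher, with 0.283% of all transcripts, and limma on these libraries alone called Kera (adjusted p 0.0321), with 0.0101% of all.

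AP_34d against RA_0 had 0 members called (0% of all). Lum, at -0.92 ± 0.38 (limma adjusted p 0.967), was the 1 member with an unadjusted p under 0.05, against 4.77% of all transcripts. Lum and Tnmd were lower in both libraries, against 15.9% of all transcripts. Kera (-0.13), Fmod (0.13) and Chad (-0.42) differed from RA_0 by less than their standard errors of 0.73, 0.86 and 0.90.

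Scx followed another course. It was lower in PLA_34d than in RA_0 by 1.78 ± 0.55 on the log2 scale (limma adjusted p 0.914), and lower than in PLA_1h by 1.59 ± 0.55 (0.999). Both libraries of PLA_34d lay below those of RA_0, which held for 14.2% of all transcripts, and 0.819% of all had an unadjusted p under 0.05 in that direction. The corresponding share against PLA_1h was 14.4%. With each library left out in turn the Scx difference ran from -2.33 to -1.23 against RA_0 and from -2.05 to -1.13 against PLA_1h. Without PLA_34d replicate 1, the library that stood apart, it was -2.25 and -2.05. No other member was apart in either comparison. limma called 0 members in both, with 0% of all transcripts called in each.

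In AP_34d against PLA_34d, limma called 0 members and 0% of all transcripts. Dcn, higher in both AP_34d libraries, was the 1 member apart in either direction, against 31.0% of all transcripts, with a difference of 0.40 ± 0.40. The AP-PLA difference averaged over both times gave 0 calls (0% of all), with Kera at -1.58 ± 0.52 (limma adjusted p 0.727), Scx at 0.98 ± 0.39 (0.796) and Dcn at 0.33 ± 0.29 (0.960). The change in the AP-PLA difference from 1 h to 34 days gave 0 calls (0% of all), with Kera at 4.26 ± 1.04, Fmod at 3.89 ± 1.22 and Chad at 3.43 ± 1.28 (limma adjusted p 1.00 for each). Without PLA_34d replicate 1 Kera was at -1.08 for the average and at 5.25 for the change. With each library left out in turn, the change ran from 3.26 to 5.25 for Kera, from 2.82 to 4.97 for Fmod and from 2.26 to 4.60 for Chad, and the average for Kera from -2.08 to -1.08. DESeq2 called Kera (adjusted p 0.00385) and Chad (0.0499) higher for this change, with 0.127% of all transcripts, and Kera (0.00756) lower for the average, with 0.292% of all.

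**Figure D2:**
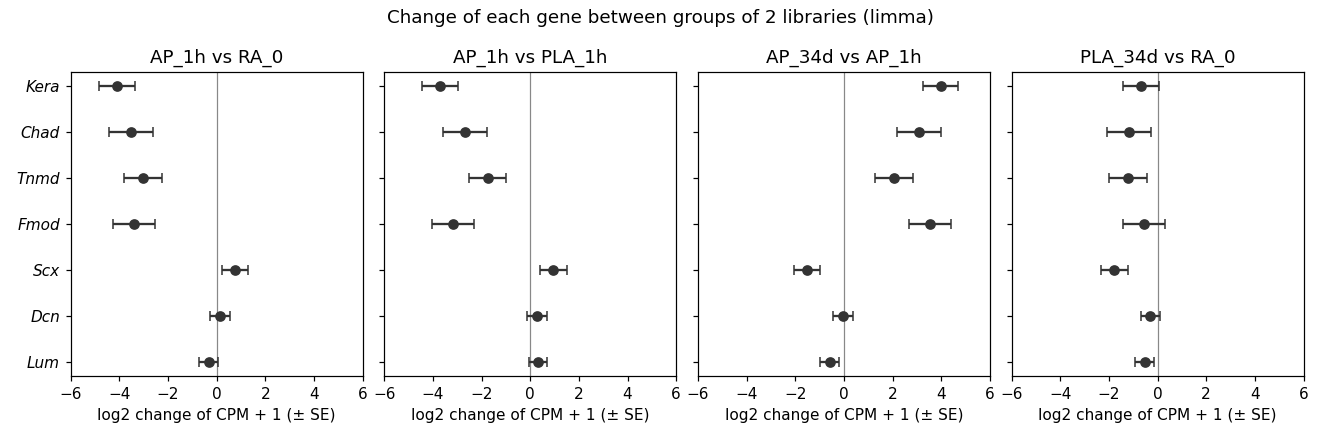
Difference in log2(CPM + 1) for each of the 7 genes in 4 comparisons, with bars of 1 standard error from limma. Kera, Chad, Tnmd and Fmod lie left of 0 for AP_1h against RA_0 (-4.10 to -3.04) and right of 0 for AP_34d against AP_1h (2.07 to 3.97), while Dcn stays within 0.30 of 0 in all 4.

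Ranked by group mean, Kera, Chad and Fmod had the same order: AP_1h, PLA_34d, PLA_1h, AP_34d and RA_0 from low to high. Tnmd also began with AP_1h and ended with RA_0. Only the first step in these orders separated neighbours whose libraries did not overlap. Beyond neighbours, Tnmd in AP_34d lay below RA_0 in both libraries. Scx ran from PLA_34d through AP_34d, PLA_1h and RA_0 to AP_1h. For Scx, Dcn and Lum every pair of neighbours overlapped.

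In 4 of the 5 groups the replicates of Kera, Chad, Tnmd and Fmod differed in the same sense. Replicate 2 was higher for 4 of 4 genes in RA_0, by 2.64- to 5.27-fold, and in PLA_1h, by 1.77- to 4.20-fold. Replicate 1 was higher for 4 of 4 in AP_34d, by 1.17- to 5.95-fold, and in PLA_34d, by 4.41- to 9.92-fold. In AP_1h replicate 2 was higher for Tnmd and replicate 1 for the 3 others, by 1.29- to 2.32-fold. Over the 10 libraries Pearson's r on log2(CPM + 1) ran from 0.884 to 0.979 for the 6 pairs among the 4 genes. It was 0.787 to 0.968 over the 8 libraries without AP_1h, and these points share a library and its tissue block. The same 4 genes against Dcn, Lum and Scx gave r from -0.499 to 0.232, and from -0.0633 to 0.548 without AP_1h.

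Type I collagen, the main fibre of tendon and of most connective tissue, varied between replicates in the same sense, and the 4 genes were therefore also set against it in each library. This measure was chosen after the values were seen. Col1a1 and Col1a2 summed to 505 and 2193 CPM in RA_0, 1473 and 705 in AP_1h, 430 and 965 in PLA_1h, 1535 and 421 in AP_34d, and 1026 and 306 in PLA_34d. The AP_1h libraries lay within the range of the others.

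For each 100 CPM of type I collagen, Kera had 2.17 and 2.31 CPM in RA_0, values that differed 4.62-fold before division. The 8 libraries outside AP_1h ran from 1.64 to 4.47 for Kera, and AP_1h had 0.0440 and 0.0397. Chad ran from 0.930 to 1.79 in the 8 libraries and was 0.0367 and 0.0595 in AP_1h. Fmod ran from 7.47 to 14.4, against 0.734 and 0.694. Tnmd ran from 0.318 to 1.18, against 0.0147 and 0.0595. On this scale the lowest of the 8 libraries exceeded the higher AP_1h library by 37.3-fold for Kera, 15.6-fold for Chad, 10.2-fold for Fmod and 5.34-fold for Tnmd.

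Scx, Dcn and Lum did not tighten in this way. Scx ranged 13.8-fold over the 8 libraries per 100 CPM of type I collagen, Dcn 4.68-fold and Lum 4.66-fold, against 1.93-fold for both Chad and Fmod, 2.73-fold for Kera and 3.72-fold for Tnmd. With the log2 level of type I collagen as a covariate in limma, Kera, Chad and Fmod were called lower in AP_1h than in RA_0 (adjusted p 0.0284 for each), 3 of the 7 transcripts called lower among all tested (0.0682%). Kera (0.0400) and Fmod (0.0121) were called against PLA_1h, where they were the 2 transcripts called lower (0.0195%). Kera (0.0313), Chad (0.0389) and Fmod (0.00966) were called higher in AP_34d than in AP_1h, with 0.0390% of all. Tnmd was not called in any of the 3, and the covariate was chosen with the values known.

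**Figure D3:**
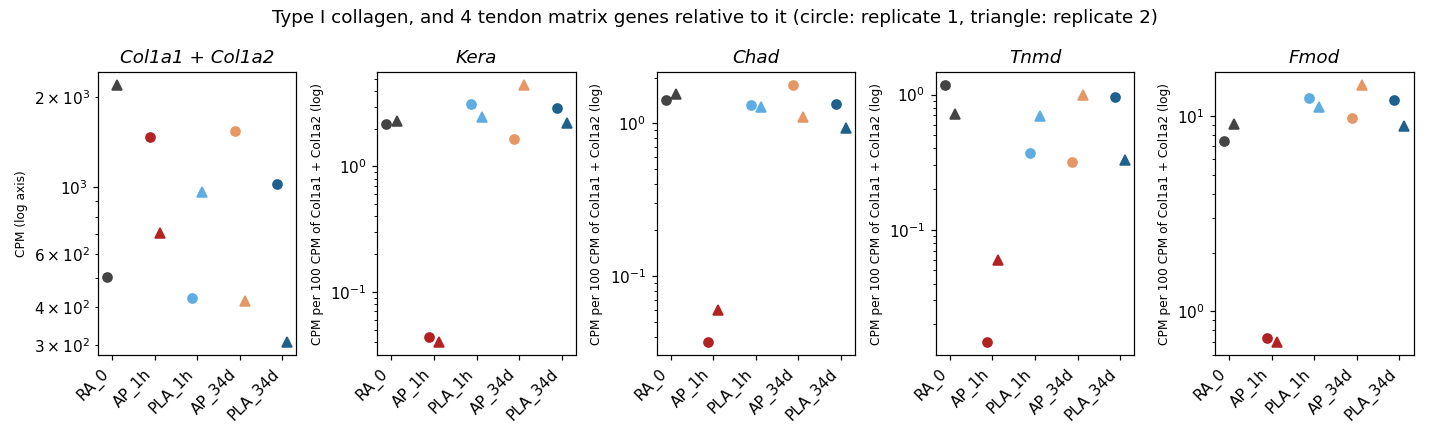
Summed level of Col1a1 and Col1a2 in CPM (left, log axis) and the CPM of Kera, Chad, Tnmd and Fmod per 100 CPM of that sum (log axes), in each library by group, with a circle for replicate 1 and a triangle for replicate 2. Type I collagen in AP_1h (705 and 1473 CPM) lies within the range of the other groups, while relative to it Kera (0.0397 and 0.0440) and the 3 other genes are lowest in AP_1h.

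The transcript most like the 4 genes was Cilp2, which encodes a cartilage intermediate layer protein. Among 8138 transcripts with a mean of at least 5 CPM it had the highest r of all with Kera (0.981), Chad (0.967) and Fmod (0.981) over the 10 libraries and the second highest with Tnmd (0.945, after Map3k3 at 0.969). Without AP_1h its r with the 4 was 0.916 to 0.960 over 8 libraries. Cilp2 stood at 6.92 and 33.4 CPM in RA_0 and at 0.324 and 0 CPM in AP_1h. PLA_1h held 4.46 and 11.8 CPM, AP_34d 18.2 and 8.81, and PLA_34d 20.3 and 3.13, so that AP_1h was again lowest and the replicates again differed in the sense of the 4. The next most like were Tnfsf10 for Kera (0.948), Pam for Chad (0.916) and Antxr1 for Fmod (0.958).

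Cilp2 belongs to a list of 20 other genes of tendon and its sheath, of which 12 were in the table and tested. In AP_1h against RA_0, 0 of the 12 were called, and 2 had an unadjusted p under 0.05, both lower. These were Cilp2, at -3.84 (limma adjusted p 0.233), and Col11a2, a chain of a fibril collagen of cartilage and tendon. Col11a2 stood at 3.34 and 22.9 CPM in RA_0 and at 0.973 and 1.12 CPM in AP_1h, a difference of -2.32 (limma adjusted p 0.410). The median of the 12 was -0.51. The 3 most abundant of the list were Cilp (0.74 ± 0.43), the early transcription factor gene Egr1 (-0.53 ± 1.08) and Tgfbi (-0.49 ± 0.44), none of them beyond 2 standard errors. In AP_34d against AP_1h, 1 of the 12 had an unadjusted p under 0.05, Cilp2, higher by 3.57 (limma adjusted p 0.584). Of genes named after their values were seen, Prg4, the lubricant proteoglycan of tendon sheath and joint surface, was at 40.8 and 44.6 CPM in RA_0 and 65.4 and 70.8 CPM in AP_1h. Over the 12 genes, both AP_1h libraries lay above RA_0 for 2 (Prg4 and Cilp) and below it for 4 (Cilp2, Col11a2, Ctgf and Matn4). Among all transcripts 21.0% were apart and lower, and no share is given for those apart and higher. Matn4 was near the limit of detection, at 0.324 and 0.420 CPM in AP_1h.

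The other small leucine-rich proteoglycans differed less between AP_1h and RA_0. Of 11 listed, 5 were tested (Aspn, Bgn, Ogn, Omd and Prelp), 0 were called and 0 had an unadjusted p under 0.05, with differences from -0.71 to 0.08. The most abundant were Ogn (-0.34 ± 0.50), Bgn (-0.28 ± 0.62) and Prelp (-0.70 ± 0.57). Aspn was lower in both AP_1h libraries (8.54 and 6.58 CPM) than in RA_0 (17.2 and 9.65), the 1 of the 5 apart, against 21.0% of all transcripts. Prelp was the 1 apart and lower than in PLA_1h, by 0.95 ± 0.57, against 16.7% of all. Of 16 tested genes for fibril collagens and their crosslinking, 0 were called and 1, the lysyl oxidase relative Loxl3, was lower at an unadjusted p under 0.05. Col1a1 (0.03 ± 0.91) and Col1a2 (-0.14 ± 0.81) differed by less than their standard errors. Col3a1 was higher in both AP_1h libraries (1178 and 746 CPM) than in RA_0 (403 and 537), by 1.01 ± 0.50 (limma adjusted p 0.618). Of the 16 genes 2 were apart and lower, against 21.0% of all transcripts. Col3a1 was the 1 apart and higher, for which no share over all transcripts is given. Against PLA_1h, Col3a1 was higher by 1.42 ± 0.50 (limma adjusted p 0.912), again with the libraries apart. There 2 of the 16 were apart and higher, against 13.9% of all transcripts, and 0 apart and lower. Of 10 tested genes for TGF-beta and GDF signals, which act on tendon cells, 0 were called. The receptor gene Tgfbr1 was higher (1.15) and the inhibitory Smad7 lower (-1.28) at an unadjusted p under 0.05, with limma adjusted p of 0.463 and 0.472. Smad3 (0.73 ± 0.73) and Tgfb2 (0.24 ± 0.46), with Tgfbr1 the most abundant of the list, differed by about 1 standard error or less. In AP_34d against AP_1h the receptor gene Tgfbr2 was higher by 1.09 at an unadjusted p under 0.05 (limma adjusted p 0.906).

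**Figure D4:**
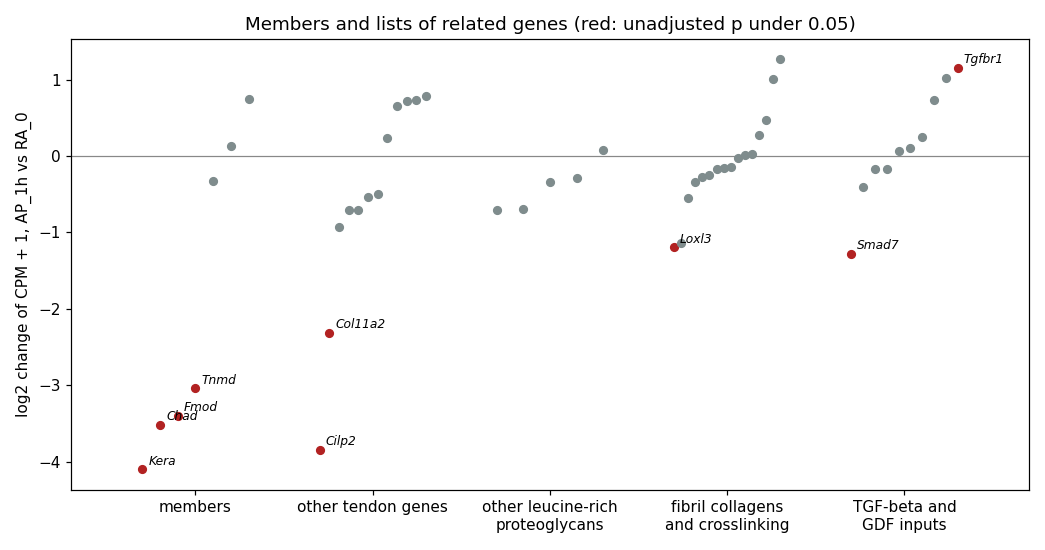
Difference in log2(CPM + 1) between AP_1h and RA_0 for the 7 members and for the tested genes of 4 related lists, 1 point per gene, with red points named where the unadjusted p was under 0.05. Apart from Kera, Chad, Fmod and Tnmd, the lowest points are Cilp2 (-3.84) and Col11a2 (-2.32), while most collagens and proteoglycans lie near 0.

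Markers of other tissues were read beside these results. Slow muscle fibre markers were also low in AP_1h against RA_0. All 6 were lower at an unadjusted p under 0.05 (median -3.62, smallest limma adjusted p 0.241), against 5.27% of all transcripts. In PLA_1h against RA_0 their median was -2.37, with 2 of the 6 lower at that level, against 2.59% of all in either direction. Against PLA_1h, all 6 were apart and lower in AP_1h (16.7% of all), with 0 at that level. Their summed level was 972 to 1120 CPM in AP_1h, 10055 to 19952 in RA_0 and 1840 to 4173 in PLA_1h. It was 1889 to 11136 in AP_34d and 1702 to 19882 in PLA_34d. Their part in the result was not tested. The library with the higher sum was replicate 1 in RA_0, PLA_1h, AP_34d and PLA_34d. For the 4 genes it was replicate 2 in the first pair of these groups and replicate 1 in the other pair. Of the 6 cartilage markers none reached the filter, and their summed level was at most 4.46 CPM, in RA_0, and at most 0.865 CPM in AP_1h. Bone markers summed to at most 7.34 CPM, with Sp7 at 0 throughout. Fibroblast markers, which include the type I collagen genes, summed to 1477 to 2695 CPM in AP_1h and 927 to 2772 in RA_0, so that these ranges overlapped.

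Schwann cell markers had a median difference of -0.999 between AP_1h and RA_0. Of 4 tested, 2 were apart and lower, against 21.0% of all transcripts. Sox10 was the 1 at an unadjusted p under 0.05, against 5.27% of all transcripts lower at that level. The Schwann cell sums were 100 to 145 CPM in AP_1h and 137 to 445 in RA_0. Of 3 endothelial markers, 1 was apart and lower in AP_1h than in RA_0, against 21.0% of all transcripts, and 1 apart and higher. Their median difference was 0.003. Cdh5 was at -1.21 against RA_0 and at 1.19 in AP_34d against AP_1h, each at an unadjusted p under 0.05. The endothelial sums were 88.6 to 127 CPM in AP_1h and 137 to 139 in RA_0. Of 4 tested adipocyte markers, 3 lay apart and lower in AP_1h than in PLA_1h, against 16.7% of all transcripts. Against RA_0, 0 of the 4 lay apart in either direction. Adipoq was at -2.23 in AP_1h against PLA_1h and at 2.16 in AP_34d against AP_1h. The adipocyte sums were 11.5 to 41.3 CPM in AP_1h, 32.6 to 55.4 in PLA_1h and 9.78 to 70.4 in RA_0. Leukocyte markers summed to 143 to 481 CPM in AP_1h and 108 to 130 in RA_0, with 0 of 3 tested at an unadjusted p under 0.05 and Ptprc at 0 throughout. Skeletal muscle markers had 0 of 5 at an unadjusted p under 0.05 against RA_0. Of these 5, 2 (Acta1 and Mb) were apart and lower and 0 apart and higher, where 21.0% of all transcripts were apart and lower. Mb was at 7067 and 7719 CPM in AP_1h, below every other library, the nearest being AP_34d replicate 2 at 9271 CPM. The part of these markers in the result was not tested.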

How the data were processed

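RNA from rat tissue labelled as muscle was sequenced as 10 libraries, of which 4 were from needled rats. According to the submitters' processing notes the reads went through cutadapt 1.2.1, Bowtie2 2.1.0 (genome rn4) and HTSeq 0.5.4p3. The signal values the authors deposited are read counts scaled to CPM (per 1000000 reads) with edgeR's TMM factors, per the file headers and values. Whole reads were recovered from 100% of values (tolerance 0.01 reads). Positions are rn4, counted from 1, and promoters are RefSeq sequences of build GRCr8.

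Transcripts reaching 1 CPM in both libraries of some group (10259, 59.6%) were tested as log2(CPM + 1) with limma 3.58.1 in R 4.3.3, with 1 mean per group, eBayes with a mean trend, and Benjamini-Hochberg adjustment over all transcripts (5 residual and 5.14 prior degrees of freedom). A pseudocount of 1 understates the change of low transcripts. Alternatives were DESeq2 1.42.0, edgeR 4.0.16, limma-voom, the compared libraries alone, other pseudocounts, filters and scalings, a replicate block and each library left out. The type I collagen covariate was added after the data had been seen. An exact permutation test of 2 libraries against 2 cannot go below p = 0.333, so none is given. Ratios of reads carry exact binomial 95% intervals.

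The members and lists were chosen with earlier results of these data known. Full statistics are given for every member and comparison with an unadjusted p under 0.05 and for each member's smallest p. From each list of related genes the text names the 3 with the highest mean and those with an unadjusted p under 0.05 in AP_34d against AP_1h, where most members had one. Those named for AP_1h against RA_0 were added with their values known. Likeness is the Pearson r over the 10 libraries. Each library is taken to be a different animal, and only on that reading do p-values reflect the spread between animals, in groups of 2.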

Additional observations from a re-analysis of the deposited data

How the results depend on the processing

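For the 22 member and comparison pairs with full statistics, 26 alternatives gave 572 values, of which 543 kept their direction and side of the threshold, 29 became calls and 0 reversed. The number of members called, 0 in every comparison, changed under 3 alternatives. DESeq2 called 4 for AP_1h against RA_0, 3 for AP_1h against PLA_1h, 3 for AP_34d against AP_1h, 1 for the AP-PLA difference averaged over both times and 2 for the change in that difference. The fit of the compared libraries alone called 4, 3 and 1 in the first 3 of these, and the type I collagen covariate, chosen after the data were seen, called 3, 2 and 3. The cause was not tested. No library left out in turn gave a call. Between AP_1h and RA_0 the differences then ran from -5.15 to -3.04 for Kera, -4.57 to -2.46 for Chad, -4.58 to -2.21 for Fmod and -3.67 to -2.41 for Tnmd, with both ends set by an RA_0 library. Chad in AP_34d against AP_1h ran from 1.93 without AP_34d replicate 1 to 4.27 without replicate 2, and Tnmd in AP_1h against PLA_1h from -2.54 to -0.98, its ends set by the PLA_1h libraries. Over all alternatives the adjusted p of Kera in AP_1h against RA_0 ran from 6.64e-08 to 0.564. The ranges of adjusted p were 6.46e-05 to 0.636 for Chad, 0.000954 to 0.667 for Tnmd and 0.000239 to 0.631 for Fmod.

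With the replicate number as a block the number of members called was 0 in each of the 10 comparisons. The numbers were not taken to pair the samples, as each library was read as a different animal. The deviations of same-numbered libraries correlated between -0.464 and 0.446, above 0.1 in 4 of 10 pairs of groups. Scaling by library totals alone moved the median of all transcripts on the log2 scale by 0.14 for AP_1h against RA_0, 0.24 for PLA_34d against RA_0, 0.19 for PLA_34d against PLA_1h, -0.20 for AP_34d against PLA_34d and -0.29 for the change in the AP-PLA difference, and the members' differences are to be read against that shift. Depth limits Kera, Chad and Tnmd in AP_1h, where 8, 8 and 5 reads carry the level, so their differences depend on the scale. Over all alternatives the difference from RA_0 ran from -6.03 to -2.68 for Kera, -5.43 to -2.20 for Chad and -5.14 to -1.70 for Tnmd. Groups of 4 or more would be needed to test single libraries as outliers.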

Other observations

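The profile averaged over all 7 members was matched most closely by Cyth3 (r = 0.918 over 10 libraries), Ssc5d (0.918), Loxl2 (0.907), Ccdc8 (0.906), Pea15a (0.906), Chodl (0.893), Clec11a (0.882), Lhfp (0.868), Fibin (0.861) and Col11a2 (0.861). Loxl2 encodes a collagen-crosslinking lysyl oxidase. It averaged 9.04 CPM in RA_0, 3.44 in AP_1h, 4.29 in PLA_1h, 7.08 in AP_34d and 5.50 in PLA_34d. Chodl averaged 33.8 CPM in RA_0 and 8.46 in AP_1h, and Fibin 22.6 and 5.41.

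The members that were not low in AP_1h had other companions. Dcn was most like Col5a2 (0.895), a chain of the collagen that sits within type I fibrils, then Txnip (0.888) and Emp1 (0.850). Lum was most like Lrrc14 (0.885), Pgm2 (0.874) and Sertad4 (0.861). Scx was most like Rdh11 (0.919), Tpcn1 (0.917) and Itsn1 (0.911). These values describe 10 libraries that share groups and depth, and were picked as the highest of 8138.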
